A study of Mus musculus with 46 samples.

Results

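Promoter interactions that scored high in the liver on one diet and were absent from the list of the other diet are described here. An interaction is a pair of restriction fragments, at least one of which is a captured promoter fragment (the bait), and the order of the pair was ignored. Members were chosen by their CHiCAGO score, a measure of how far the number of reads joining a pair exceeds the number modelled from distance and noise. A score of at least 10 on one diet and no entry for the pair on the other diet was required, and each list starts at a score of 5. Of 195691 pairs present on at least 1 list, 954 were members. The lipid-rich diet (LD) gave 369 of them, called LD-side interactions, and the carbohydrate-rich diet (CD) gave 585, called CD-side interactions.

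The livers came from male C57BL/6 mice, for which the labels name no transgene or deletion. They arrived at 5 weeks of age, were acclimated on standard chow and were then kept on a diet for 20 weeks. LD, named high fat diet in the labels, supplied 60% of the energy from lipid and 20% from carbohydrate. CD, named low fat diet, supplied 10% from lipid and 70% from carbohydrate, and both supplied 20% from protein. Promoter capture Hi-C (PCHi-C) was made from 2 libraries per diet, which the authors pooled before scoring, so the scores carry no replicate error and no interaction was tested between the diets here. The authors' own comparison of interactions between the diets was not used. RNA-seq covered 5 mice per diet with 31707963 to 39012699 counted read pairs per library, and log2 expression correlated at 0.982 to 0.993 between mice. Peak lists covered H3K27ac in 3 mice per diet, and the transcription factors Hnf4a and C/EBPa in 2 mice per diet each.

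Promoters touch distant DNA when the chromatin fibre folds, and such contacts can bring an enhancer close to the gene that it acts on. Most contacts form inside topologically associated domains (TADs), stretches of a chromosome that fold mostly on themselves. Acetylation of histone H3 at lysine 27 (H3K27ac) marks active enhancers and promoters, and Hnf4a and C/EBPa are among the main factors that keep hepatocyte genes active. Contacts between far or inactive regions also occur, as between clusters of silent genes.

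Stretches of DNA under a factor peak are shown for members whose far end is a distal fragment, not a bait, that held the centre of such a peak. They are the highest-scoring LD-side member of this kind and the members of this kind of the genes named by their RNA change or taken from the gene lists. Each is the central 200 bases of the tallest Hnf4a or C/EBPa peak in the far end, on the plus strand of mm9, read from the reference genome. The first lies at chr10:99066870-99067069 outside protein-coding genes, 421 kb from the bait of the LD-side member of Gm16239, under a C/EBPa peak that both LD samples had and neither CD sample had. The second, at chr6:89578093-89578292, lies 731 kb from Mcm2 (LD-side, C/EBPa). The third, at chr14:8976998-8977197 in an intron of Pxk, lies 146 kb from the bait of Abhd6 and Dnase1l3 (LD-side), under a C/EBPa peak with a height of 9 called in CD replicate 2 alone. The fourth, at chr3:81834940-81835139 outside protein-coding genes, lies in an end that Fga and Fgg share (CD-side, Hnf4a). The fifth, at chr3:82156461-82156660, lies 653 kb from Fgg (CD-side), under a C/EBPa peak with a height of 6.5 called in CD replicate 1 alone. The next, at chr3:82807128-82807327, lies 49.1 kb from Fgb (CD-side, Hnf4a), and the last, at chr1:138792550-138792749 in an intron of Nr5a2, lies 63.6 kb from an Nr5a2 promoter (CD-side, Hnf4a) and begins just before the fragment. Capitals mark a match to the C/EBP-type pattern TTGCNNAA. The HNF4-type pattern CAAAGNNCA was searched too, both patterns on both strands, and neither pattern contains the other.
Gm16239 far end: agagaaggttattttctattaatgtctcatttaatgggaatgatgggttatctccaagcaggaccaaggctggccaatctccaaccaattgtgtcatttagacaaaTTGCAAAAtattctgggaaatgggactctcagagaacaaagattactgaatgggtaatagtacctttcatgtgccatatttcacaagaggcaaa
Mcm2 far end: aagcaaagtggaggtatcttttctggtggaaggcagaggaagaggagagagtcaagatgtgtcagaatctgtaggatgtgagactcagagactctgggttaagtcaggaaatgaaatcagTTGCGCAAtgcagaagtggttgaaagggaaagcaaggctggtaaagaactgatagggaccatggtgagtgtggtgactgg
Dnase1l3 far end: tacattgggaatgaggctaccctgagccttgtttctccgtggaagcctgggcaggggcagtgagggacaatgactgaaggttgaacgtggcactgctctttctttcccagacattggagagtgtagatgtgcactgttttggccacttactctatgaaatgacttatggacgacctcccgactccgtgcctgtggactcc
Fga and Fgg far end: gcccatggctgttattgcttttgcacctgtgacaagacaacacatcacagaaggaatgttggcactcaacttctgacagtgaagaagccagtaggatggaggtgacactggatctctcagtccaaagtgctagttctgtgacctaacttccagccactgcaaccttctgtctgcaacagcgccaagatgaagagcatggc
Fgg far end at 653 kb: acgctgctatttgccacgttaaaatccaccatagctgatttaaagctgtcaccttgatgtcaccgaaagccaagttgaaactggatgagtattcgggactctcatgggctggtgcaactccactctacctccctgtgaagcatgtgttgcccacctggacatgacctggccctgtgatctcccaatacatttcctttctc
Fgb far end: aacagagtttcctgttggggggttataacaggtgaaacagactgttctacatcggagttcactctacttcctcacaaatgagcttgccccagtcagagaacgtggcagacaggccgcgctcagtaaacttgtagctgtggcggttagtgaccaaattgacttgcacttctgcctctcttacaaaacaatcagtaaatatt
Nr5a2 far end: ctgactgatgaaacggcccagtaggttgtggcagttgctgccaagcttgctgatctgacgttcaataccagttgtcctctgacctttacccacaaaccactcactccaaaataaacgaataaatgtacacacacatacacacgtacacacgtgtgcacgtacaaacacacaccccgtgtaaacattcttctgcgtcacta

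The C/EBPa windows at Gm16239 and Mcm2 hold the C/EBP-type letters, and those at Dnase1l3 and Fgg do not. The Hnf4a windows at the fibrinogen genes and Nr5a2 hold no match to the HNF4-type letters. With the windows of the 3 highest-scoring members of this kind on either side, which are not all printed, 3 of 6 C/EBPa windows and 0 of 5 Hnf4a windows held their pattern. Over all C/EBPa windows of the same length, 32.3% held TTGCNNAA (24.3% to 39.7% by sample), against 11 of 41 windows (26.8%) at LD-side ends and 33 of 86 (38.4%) at CD-side ends. Over all Hnf4a windows 22.5% held CAAAGNNCA, against 5 of 25 (20%) at LD-side ends and 10 of 71 (14.1%) at CD-side ends. These shares describe letters only. At members each end counted once, by its tallest peak in any sample. The overall shares count every peak of every sample, so that overlapping windows of several samples count apart there.

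Members were a small part of the high-scoring interactions. Of 29092 pairs with a score of at least 10 on LD, 74.8% also scored at least 10 on CD, 23.9% scored between 5 and 10 there, and 1.27% were missing. Of 30960 such pairs on CD, 70.3% scored at least 10 on LD, 27.8% scored between 5 and 10, and 1.89% were missing. The scores that chose the members lay close to the threshold. The median was 10.83 on the LD side (10 to 21.63) and 10.89 on the CD side (10 to 23.14), and 54.7% and 54.0% of members scored under 11. Only 7 LD-side and 19 CD-side members reached 15. Just outside the threshold, the highest missing pair scored 9.99 on either diet, and 533 LD pairs and 698 CD pairs missing on the other diet scored between 9 and 10. The full LD list was the longer one, with 151203 pairs against 149798 on CD.

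Members spanned longer distances than interactions that were high on both diets. The median distance between fragment midpoints was 436 kb on the LD side (interquartile range 313 to 654 kb) and 415 kb on the CD side (237 to 624 kb), against 222 kb (129 to 355 kb) for the 21770 pairs with a score of at least 10 on both diets. More than 500 kb was spanned by 40.7% of LD-side and 37.8% of CD-side members, against 12.3% of the pairs high on both diets. Under 100 kb lay 8 LD-side members (2.17%) and 28 CD-side members (4.79%), against 16.5% of the shared pairs. The shortest member joined fragments 5.76 kb apart, at Ckm on the CD side, and the longest spanned 1007 kb, also on the CD side.

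**Figure D1:**
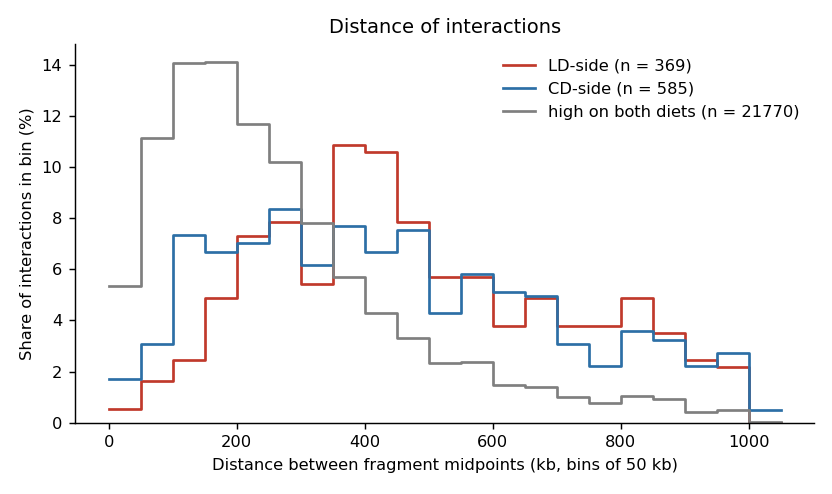
Share of interactions (%) in bins of 50 kb of distance between fragment midpoints, for LD-side members, CD-side members and the pairs with a score of at least 10 on both diets. The shared pairs peak between 100 and 200 kb, whereas the LD-side line is highest between 350 and 450 kb and the CD-side line is flatter.

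A boundary of the LD domains lay between the ends of 241 LD-side members (65.3%) and 370 CD-side members (63.2%), against 24.3% of the pairs high on both diets. With the CD domains the shares were 64.0%, 60.9% and 23.8%. The share rose with distance in all 3 groups of pairs, and within the band of 250 to 500 kb it was 56.7% for LD-side members, 66.2% for CD-side members and 32.8% for the shared pairs. From 500 to 1000 kb the shares were 84.7%, 86.9% and 71.1%. The median number of protein-coding transcription starts between the ends was 4 on either side and 1 for the shared pairs. Baits were joined to each other in 125 LD-side members (33.9%) and 155 CD-side members (26.5%), against 16.4% of the shared pairs. The other end was a distal fragment in the rest, 241 different ends on the LD side and 419 on the CD side. Of the LD-side members with a distal end, 52.9% had it outside protein-coding genes, 39.3% in an intron and 7.79% on an exon, and the CD-side shares were 53.3%, 42.1% and 4.65%.

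The region of a missing pair was seldom empty on the other diet. Where both ends were baits, each was tried as the bait and the smaller distance was kept. Every member of either side had another interaction of the same bait on the list of the other diet. The nearest such fragment touched the member's opposite end for 191 LD-side members (51.8%) and 349 CD-side members (59.7%). It lay within 20 kb for 299 (81.0%) and 489 (83.6%). Farther than 20 kb away were 70 LD-side and 96 CD-side members, and farther than 100 kb were 21 and 35. The strongest CD-side member, Angel2 with Smyd2, belonged to the last group, with the nearest LD fragment 124 kb away.

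Most baits of members had 1 member (422 of 455 on the LD side and 531 of 608 on the CD side), and some stretches of 1 Mb held several. No background share of all interactions was computed for these stretches. On the LD side, 18 members (4.88%) had a bait at 99 to 100 Mb of chromosome 11, which holds keratin and keratin-associated genes such as Krt23, Krt26 and Krtap4-7, structural proteins of hair and epithelia, and 7 had a bait at 74 to 75 Mb of chromosome 9, at AC100600.1 and Onecut1. The same keratin stretch also held the baits of 7 CD-side members, and the stretch of chromosome 9 held those of 2. The bait with most LD-side members was that of AC100600.1 with 5, followed by Krtap4-7 and Opa1 with 3 each, and U6.241 also had 3. Onecut1, a liver transcription factor gene beside AC100600.1, had LD-side members with scores of 14.01 and 10.17, at 582 and 315 kb. Its RNA was 5.22, 4.03, 6.33, 4.22 and 1.79 CPM (counts scaled by library size) in the LD mice and 3.79, 3.73, 6.17, 41.5 and 22.7 CPM in the CD mice. The 2 high CD mice stood apart and the groups overlapped, and the log2 fold change of -1.85 ± 0.77 (SE) did not pass (edgeR, adjusted p = 0.111).

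On the CD side, 29 members (4.96%) had a bait at 20 to 21 Mb of chromosome 7 and 17 at 19 to 20 Mb, where 3 and 4 LD-side members had theirs, with the baits of Bloc1s3 and Trappc6a (8 members), Ckm (6), Clasrp (6) and Relb (5). A further 21 lay at 67 to 68 Mb of chromosome 13 among zinc-finger genes, 11 of them at the bait of Zfp595, the bait with the most members. That bait had 216 pairs on the CD list and 160 on the LD list. Its gene was lower on LD, at 5.16 ± 1.03 against 8.36 ± 0.96 CPM (SD, n = 5 each), with a log2 fold change of -0.69 ± 0.14 (edgeR, adjusted p = 0.00278), although reads can be shared among such related genes. Ckm, the creatine kinase of muscle, had 0 counts over the 10 mice. Chromosome 7 held 52 LD-side members (14.1%) and 112 CD-side members (19.1%), against 10.02% of the shared pairs.

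Of the 8 LD-side members with the highest scores, the first joined 3222401L13Rik with Pcdha1, a protocadherin of nerve cells, on chromosome 18 (score 21.63, 724 kb apart). The next ones joined Ankmy1 with the odorant receptor gene Olfr12 (17.46, 285 kb), and the pheromone receptor gene Vmn2r74 with Olfr305 (17.37, 402 kb). The fourth joined Irgm2, an interferon-induced GTPase, with the bait of Sap30l and 2010001A14Rik (16.54, 410 kb), and the Sap30l fragment carried H3K27ac in all 6 mice. Ms4a6b joined Ms4a15 (15.17, 525 kb), Gm16239 joined the distal end printed first above (15.10, 421 kb), U6.887 joined Gpatch3 (15.08, 307 kb), and 2700060E02Rik joined a distal end (14.99, 210 kb). Pcdha1 and Ms4a15 had 1 count each over the 10 mice, Ankmy1 had 15, and Olfr12, Vmn2r74 and Olfr305 had 0. Among the tested genes of these 8 members, Ms4a6b was higher on LD (4.62 ± 0.87 against 2.25 ± 0.50 CPM, SD, n = 5 each; edgeR, adjusted p = 0.00108), and Irgm2, Sap30l, 2010001A14Rik, Gpatch3 and 2700060E02Rik did not pass. The bait of Ms4a6b also had 3 CD-side members (10.28 to 12.10), with 24 pairs on the LD list and 31 on the CD list.

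Among the 8 strongest CD-side members, Angel2 joined Smyd2, a lysine methyltransferase gene (23.14, 1001 kb), Ywhaq, a 14-3-3 protein gene, joined an intron of Asap2 (22.94, 253 kb), and Bcl2a1b, an anti-apoptotic Bcl2 relative, joined AF529169 (19.14, 420 kb). Peli3 joined Rce1 (19.12, 319 kb), Gm15726 joined an intron of Mid1 (19.12, 61.4 kb), and Gm17237 joined an intron of Nt5dc1 (19.01, 279 kb). Dgkh joined Rgcc (18.66, 580 kb) and U1.92 joined an intron of Dync1i1 (18.21, 910 kb). The bait of Gm15726 is 98360 bases long, unlike most fragments, whose median length at the distal ends of CD-side members was 1931 bases. H3K27ac was present in all 6 mice at the ends of Smyd2 and Rce1. Ywhaq also had an LD-side member to another fragment of the same Asap2 intron (10.59, 257 kb), and its RNA did not differ beyond the spread (log2 fold change 0.09 ± 0.07, edgeR, adjusted p = 0.415). Of the genes of these 8 members, Bcl2a1b was called, and Angel2, Smyd2, Peli3, Rce1 and Dgkh were not.

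The question for the genes was whether RNA differed where such contacts were present on one diet. The LD-side baits hold the transcription start of 420 genes, of which 241 passed the filter on low counts, and 30 of these (12.4%) were higher on LD and 16 (6.64%) lower. Over all 13494 genes tested, 13.8% were higher and 11.1% lower, so that the LD-side shares lay near or below the background. Without CD replicate 4 the lower LD-side genes numbered 9. The CD-side baits hold 569 genes, of which 359 were tested, with 52 (14.5%) higher and 35 (9.75%) lower, and the 3760 tested genes of pairs high on both diets gave 14.1% and 11.8%. The median log2 fold change was -0.01 on the LD side and -0.00 on the CD side and over all genes. The values of the LD mice did not overlap those of the CD mice for 35 LD-side genes (14.5%) and 74 CD-side genes (20.6%), against 18.5% of all tested. A called gene passed an adjusted p of 0.05 and a fold change of 1.2. Because members passed the filter by their level in either group, these shares describe the tested members and not all of them.

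**Figure D2:**
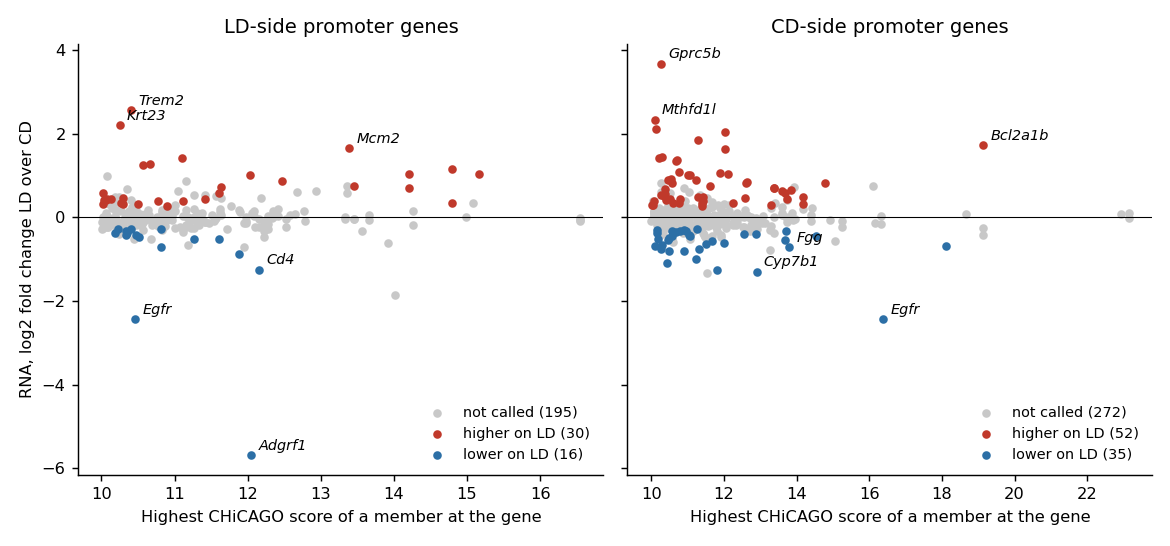
RNA change (log2 fold change, LD over CD, edgeR) of each tested promoter gene against the highest CHiCAGO score among its members, LD-side genes at left and CD-side genes at right, with called genes in colour. Called genes of both directions lie at low and high scores on both sides, 46 of 241 at left and 87 of 359 at right.

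Many baits of members belong to genes with little liver RNA. A mean of at least 1 TPM, a level scaled to library size and transcript length, over the 10 mice was reached by 51.2% of LD-side genes and 53.8% of CD-side genes, against 60.5% of the genes of pairs high on both diets and 46.3% of all genes listed. The median level was 1.19, 1.88, 3.54 and 0.496 TPM in the same order. Odorant receptor genes (Olfr) made up 37 LD-side genes (8.81%) and 49 CD-side genes (8.61%), against 3.50% of the shared pairs' genes and 4.42% of all. Zinc-finger genes (Zfp) were 1.90% of LD-side and 4.04% of CD-side genes, against 1.58% of all, and keratin and keratin-associated genes numbered 13 on the LD side (3.10%) and 6 on the CD side (1.05%), against 0.735% of the shared pairs' genes and 0.443% of all. Of all these genes, 50 had members on both sides (11.9% of the LD-side and 8.79% of the CD-side genes), and 34 of them were tested, with 3 higher (8.82%) and 2 lower (5.88%) on LD, against 13.8% and 11.1% of all tested.

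The LD-side genes with the largest increases on LD were Trem2, a lipid-sensing receptor of macrophages, and Krt23, a keratin. Trem2 had 1.22, 4.86, 4.47, 3.31 and 6.29 CPM in the LD mice and 0.924, 0.470, 0.950, 0.921 and 0.175 CPM in the CD mice. The groups did not overlap, although LD replicate 1 came close to the highest CD mice. Its log2 fold change was 2.55 ± 0.47 (edgeR, adjusted p = 0.00242), and its member joined Lrfn2 (10.41, 582 kb). Krt23 had 7.6, 2.94, 5.24, 7.73 and 4.42 CPM on LD and 1.47, 1.41, 1.03, 0.540 and 1.57 CPM on CD, with every LD mouse above every CD mouse. The log2 fold change was 2.20 ± 0.31 (edgeR, adjusted p = 0.000390), and its member lay 688 kb away with a score of 10.25. The next genes were Mcm2, a subunit of the replicative DNA helicase (log2 fold change 1.66), Endod1 (1.41), Thbs1, which encodes the matrix protein thrombospondin (1.28), and Acyp2, an acylphosphatase (1.26), all called without overlap between the groups.

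The largest decrease among LD-side genes was that of Adgrf1, an adhesion G protein-coupled receptor. Its RNA was 1.03, 0.956, 0.155, 0.243 and 0 CPM in the LD mice and 28.04, 28.1, 11.1, 39.1 and 22.6 CPM in the CD mice. Every LD mouse lay far below every CD mouse, with a log2 fold change of -5.69 ± 0.61 (edgeR, adjusted p = 0.000296). Its promoter fragment met that of 1700071M16Rik on the LD list (12.05, 324 kb), and H3K27ac was found at the Adgrf1 fragment in 3 CD mice and 1 LD mouse. Further LD-side genes that were lower on LD were Cd4, the co-receptor of helper T cells, which joined Tuba3a on the LD list (-1.26; 12.16, 399.9 kb), Snord15a, a small nucleolar RNA (-0.71, edgeR adjusted p = 0.0557 without CD replicate 3), Dnase1l3, a secreted DNase (-0.52, at an edgeR adjusted p of 0.0452, a call lost in 8 of 14 alternatives with an adjusted p of up to 0.0946), and Jade1, part of a histone acetyltransferase complex (-0.47). Snord15a lies in an intron of Rps3, so its counts and those of its host share a place. In bulk liver, fewer cells of a type and less RNA per cell cannot be told apart, for these genes and for those below.

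The CD-side genes with the largest increases on LD were Gprc5b, an orphan G protein-coupled receptor, and Mthfd1l, a mitochondrial enzyme of folate-dependent one-carbon metabolism. Gprc5b had 2.41, 2.62, 9.37, 11.9 and 14.2 CPM in the LD mice and 0.414, 0.522, 0.698, 1.08 and 0.437 CPM in the CD mice. The LD mice varied widely and all lay above the CD mice, with a log2 fold change of 3.68 ± 0.61 (edgeR, adjusted p = 0.00209). Mthfd1l had 3.46, 5.41, 6.21, 10.1 and 8.28 CPM on LD and 1.18, 1.31, 1.56, 1.46 and 1.106 CPM on CD, again without overlap. Its log2 fold change was 2.33 ± 0.26 (edgeR, adjusted p = 6.35e-05). Their members on CD were single contacts of 231 kb (10.26) and 425 kb (10.10), and in both the touching fragment was listed on LD. Hist1h3h (2.04) and Hist1h2bm (1.64), replication-dependent histone genes on 1 bait, Bcl2a1b (1.72) and Col3a1, a fibrillar collagen (1.44), followed. Counts of Hist1h3h, Hist1h2bm and Bcl2a1b are uncertain, because these genes have near-identical copies. Among the decreases beside Egfr and Cyp7b1 were Cd4 (-1.26), which joined Vamp1 on the CD list (11.81, 329.6 kb), Tspyl4 (-1.10), Zfp941 (-0.996) and Fn1, which encodes fibronectin (-0.80).

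**Figure D3:**
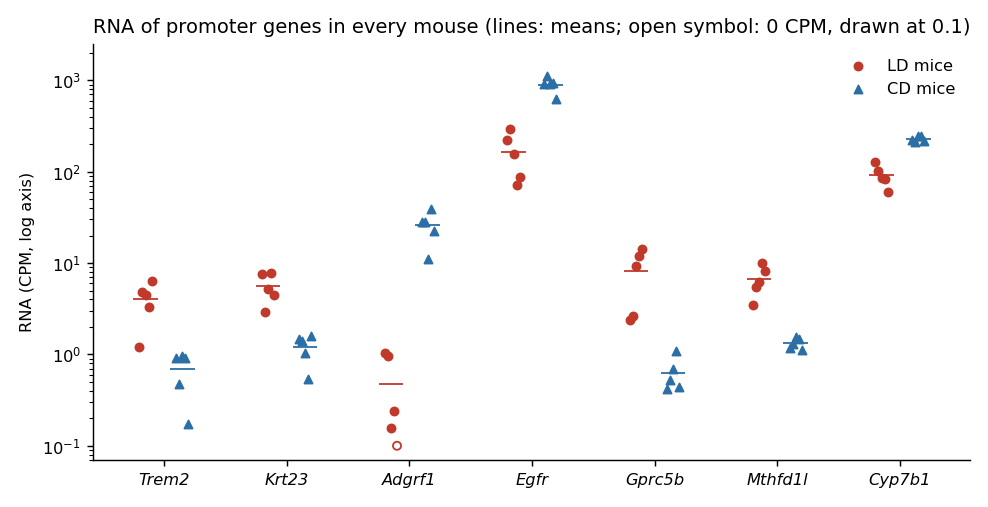
RNA (CPM, log axis) of the promoter genes with the largest called changes, in each of 5 LD mice (circles) and 5 CD mice (triangles), with lines at the group means and the Adgrf1 value of 0 CPM drawn at 0.1 as an open symbol. In every gene shown the LD and CD mice are separate, with the closest approach in Trem2.

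Egfr, the receptor of epidermal growth factor, had members on both sides, as had Cd4, and these were the 2 such genes called lower. The RNA of Egfr was 220.0, 290.0, 158, 71.7 and 87.1 CPM in the LD mice and 904, 1107, 909, 933 and 624 CPM in the CD mice. All LD mice lay below all CD mice, and the log2 fold change was -2.44 ± 0.39 (edgeR, adjusted p = 0.00200). On CD, the bait had 28 pairs, 11 of them with a score of at least 10 and the highest at 22.41. On LD it had 25 pairs, of which 1 reached 10. The 4 CD-side members (16.38, 13.50, 10.12 and 10.19) lay within chr11:16491311-16501190, 149 to 158 kb from the bait toward lower coordinates and outside protein-coding genes. Fragments beside them were listed on LD with lower scores, and no LD pair toward lower coordinates scored above 8.31. At the first of the 4 ends, H3K27ac was present in all 6 mice, and at the other 3 in none.

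The LD-side member of Egfr pointed the other way. It joined the promoter to chr11:16757800-16763566, inside an intron of Egfr itself at 110 kb (10.46), and the nearest fragment listed on CD was 151 kb away. This end carried H3K27ac in all 3 CD mice and in no LD mouse. Contact and acetylation at this end were thus listed on opposite diets. It was the only LD-side end acetylated in every CD mouse and no LD mouse.

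Cyp7b1, the oxysterol hydroxylase of the alternative bile acid pathway, had 4 members, all on CD. Its RNA was 128, 102, 84.7, 83.8 and 59.8 CPM in the LD mice and 220.0, 212, 244, 244 and 216 CPM in the CD mice. The groups were far apart, with a log2 fold change of -1.31 ± 0.16 (edgeR, adjusted p = 0.000202). The bait had 60 pairs on CD, 14 with a score of at least 10, and 31 on LD, 5 with such a score. The members lay at 180, 183, 215 and 632 kb toward higher coordinates with scores of 12.90, 12.41, 12.13 and 12.46. The end at 180 kb, chr3:18326080-18328068, carried H3K27ac in all 3 CD mice and no LD mouse, and the end at 183 kb in all 3 CD mice and 1 LD mouse with Hnf4a peaks in all 4 samples. A group of contacts near 373 kb and another near 819 kb, with scores above 12 on both diets, were no members.

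The 3 fibrinogen genes, which lie together on chromosome 3 and encode the chains of the main clotting protein, accounted for 7 CD-side members. Fgg had 5 (10.51 to 13.80, at 39.997 to 997 kb), and Fga and Fgb had 1 each. The bait of Fgg had 22 pairs on CD, 9 with a score of at least 10, and 5 on LD with none above 8.39. Of the 5 Fgg members, 4 lay 653 to 997 kb away toward lower coordinates, in introns of Accn5 and Gucy1b3 and outside genes. The fifth lay in Fgb. Fga shared the end at Gucy1b3 with Fgg (12.01 and 11.99). The printed Hnf4a peak in this end was centred outside protein-coding genes. It had heights of 10.8 and 17.5 in the LD samples and was called in neither CD sample, although 1 CD sample had another Hnf4a peak in this end. The Fgb member, at 49.1 kb, held the tallest Hnf4a peak of these ends, with heights of 99.5 and 87.5 on LD and 53.5 and 116.2 on CD.

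Fibrinogen RNA was high and lower on LD for all 3 chains. Fgb had 2908, 2967, 2703, 3082 and 2446 CPM in the LD mice and 5219, 4969, 4213, 5172 and 4371 CPM in the CD mice. No LD mouse reached a CD mouse, and the log2 fold change was -0.76 ± 0.09 (edgeR, adjusted p = 8.43e-05). Fga had 3131 ± 274 against 4797 ± 404 CPM (-0.62 ± 0.09) and Fgg had 2322 ± 123 against 3806 ± 364 CPM (-0.71 ± 0.08; SD of the levels and SE of the changes, n = 5 each). The counts lay on 3 neighbouring genes of similar function, so they are no independent examples.

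**Figure D4:**
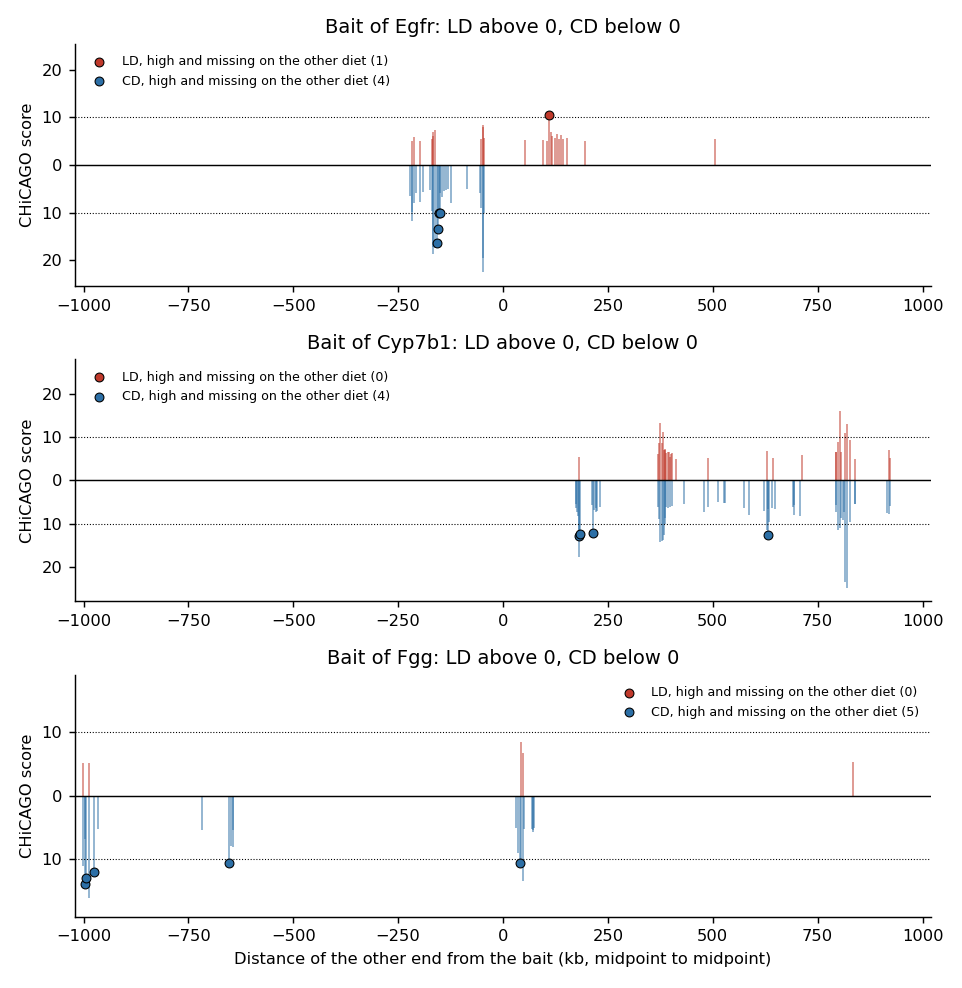
CHiCAGO scores of all listed pairs of the baits of Egfr, Cyp7b1 and Fgg against the distance of the other end (kb), with LD above 0, CD below 0, dots for members and dotted lines at a score of 10. Egfr has 11 pairs past 10 on CD and 1 on LD, Cyp7b1 14 and 5, and Fgg 9 and 0. These counts include the scores that chose the members, and other baits are not shown. All 3 genes were lower on LD, as were 9.75% of tested CD-side genes, against 11.1% of all tested.

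No gene of the lists for de novo lipogenesis, fatty acid oxidation, lipid droplets, sterol synthesis and uptake, apolipoproteins or glucose metabolism had a member, although 10 of 17 tested lipogenesis genes were lower on LD, 17 of 26 oxidation genes higher and 8 of 13 lipid droplet genes higher. Of the bile acid list, 7 of 14 were lower and 1 higher, and Cyp7b1 alone had members. Of the acute phase list, 10 of 19 were higher and 4 lower, and the fibrinogen genes had members. Fgf21, a hormone of the fasted liver and the one gene of the PPAR-alpha list with a member (6 of 15 higher, 1 lower), was higher on LD at 3.36, 7.75, 14.5, 11.1 and 12.8 CPM against 4.46, 3.42, 1.79, 4.35 and 5.27 CPM. LD replicate 1 lay among the CD mice, and the log2 fold change was 1.36 ± 0.39 (edgeR, adjusted p = 0.0264; the call was lost in 7 of 14 alternatives, with 0.109 under a replicate block). Nr5a2, a nuclear receptor that acts on bile acid genes, was lower at 51.2 ± 2.87 against 63.3 ± 2.04 CPM (SD, n = 5 each), with a log2 fold change of -0.31 ± 0.06 (edgeR, adjusted p = 0.00190). Cyp2e1, Dbp and Gpat4 had members and were not called.

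Several called genes are markers of other cells of the liver. Of the macrophage markers, 6 of 14 were higher and none lower, with a summed level of 686 to 1575 CPM on LD and 501 to 940 CPM on CD, and Trem2 belongs to the list. Of the lymphocyte markers, which include Cd4, 2 of 10 were higher and 1 lower, with 6.65 to 14.6 CPM on LD and 7.76 to 9.63 CPM on CD. Of the stellate cell markers, which include Col3a1, 5 of 10 were higher, with 755 to 1095 CPM on LD and 621 to 761 CPM on CD. Of the 8 adipocyte markers 4 passed the filter and all 4 were higher, with 127 to 224 CPM on LD and 25.3 to 29.1 CPM on CD, and of the cholangiocyte markers 1 of 6 was higher, with 46.2 to 122 CPM on LD and 18.98 to 32.7 CPM on CD. Neither summed level overlapped between the diets, and no gene of these lists had a member. All macrophage, lymphocyte and stellate markers passed the filter, so none was at 0. The hepatocyte markers, which check the labelled tissue, summed to 81560 to 99639 CPM on LD and 91390 to 106401 CPM on CD, and 6 of 10 were lower and none higher, with a median log2 fold change of -0.45. The part of these cells in the changes of Trem2, Cd4, Col3a1 and Ms4a6b, and that of the hepatocyte markers in the decreases of Egfr, Cyp7b1, Nr5a2 and the fibrinogen genes, was not tested.

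At distal ends, factor and acetylation peaks were fewer on the LD side than on the CD side in every sample over all distances. H3K27ac covered 19.5%, 19.9% and 18.3% of the 241 LD-side ends in the LD mice and 16.6%, 18.3% and 14.5% in the CD mice. It covered 33.9%, 32.7% and 32.5% of the 419 CD-side ends in the LD mice and 34.6%, 33.2% and 32.9% in the CD mice. The ends of pairs high on both diets lay between, at 28.8%, 29.7% and 28.8% in the LD mice and 27.1%, 27.4% and 26.0% in the CD mice. No LD-side share reached a CD-side share. Within 250 to 500 kb the order was 15.7% to 20% for LD-side ends, 21.3% to 24.99% for shared ends and 31.0% to 35.4% for CD-side ends, and from 500 to 1000 kb it was 12.6% to 17.9%, 13.3% to 15.7% and 24.2% to 25.5%, so that LD-side and shared ends overlapped there. For the factors the sides were apart within 250 to 500 kb, with Hnf4a at 6.09% to 8.70% of LD-side and 10.8% to 14.6% of CD-side ends, and C/EBPa at 8.70% to 13.04% and 15.8% to 22.8%. From 500 to 1000 kb the sides overlapped, with Hnf4a at 7.37% to 10.5% of LD-side, 6.71% to 12.8% of CD-side and 6.10% to 8.15% of shared ends, and C/EBPa at 7.37% to 10.5%, 9.40% to 12.1% and 7.21% to 9.30%. The median length of the distal fragment was 2308.5 bases on the LD side, 1931 on the CD side and 2392 for shared ends. The part of fragment length in these shares was not tested.

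Whether acetylation followed the diet of the contact was asked by the difference between the sides within each mouse. The LD-side share minus the CD-side share was -14.4, -12.8 and -14.2 percentage points in the LD mice and -18.0, -14.9 and -18.4 points in the CD mice. The LD mice lay higher without overlap, by 3.32 points (exact two-sided permutation test, p = 0.1, the smallest that 3 against 3 mice can give). The LD lists also held more H3K27ac peaks in all, 53821 to 56987 against 48156 to 51608, and the part of this was not tested beyond the difference within a mouse. The CD-side share less that of the shared ends differed by -2.83 points between LD and CD mice, without overlap (exact p = 0.1), whereas the LD-side share less that of the shared ends differed by 0.50 points with overlap (exact p = 0.7). The shared ends themselves were 2.27 points higher in LD mice (exact p = 0.1). With at least 50% of the peak inside the end, the side difference was 1.19 points (exact p = 0.4).

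Hnf4a covered 8.30% and 9.13% of LD-side ends on LD and 5.81% and 8.71% on CD, whereas at CD-side ends the LD samples had it at 16.5% and 15.04% and the CD samples at 11.7% and 15.8%. The side difference of the LD samples less that of the CD samples was -0.58 points, with overlap (exact p = 0.667). C/EBPa covered 8.30% in each LD sample and 10.4% in each CD sample at LD-side ends, and 15.04%, 15.99%, 16.2% and 16.5% at CD-side ends. The same measure was -1.24 points, without overlap, at an exact p of 0.333, which is the smallest that 2 against 2 samples can give. Both directions turned under some settings given in the closing part. None of the 3 marks was found in any sample at 64.7% of LD-side ends, 52.7% of CD-side ends and 52.8% of shared ends, and all 3 were found at 5.39%, 13.8% and 10.3%.

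**Figure D5:**
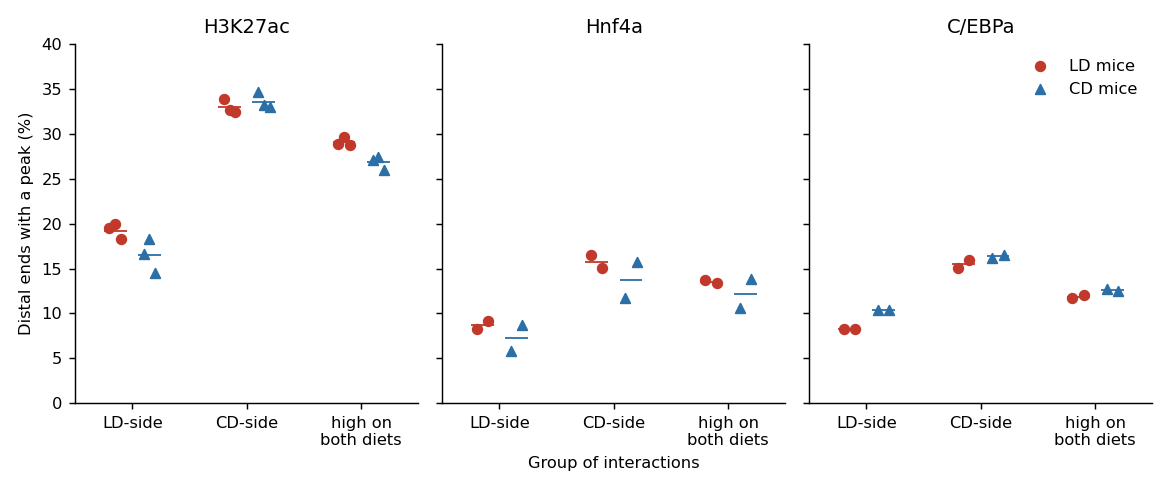
Share of distal ends (%) with a peak of H3K27ac, Hnf4a or C/EBPa, each point 1 sample, with circles for LD mice, triangles for CD mice and lines at the group means, for LD-side, CD-side and shared interactions. In each panel and on each diet the mean of the LD-side ends is lowest and that of the CD-side ends highest.

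Peaks restricted to one diet were rare at the ends of members. H3K27ac in all LD mice and no CD mouse was seen at 1 LD-side and 0 CD-side ends (0.62% of all 91324 listed distal ends), and the reverse at 1 LD-side and 1 CD-side end (0.198% of all). The first was an intron of Pdcd1lg2 joined to Cd274, which encodes the immune checkpoint ligand PD-L1, and the others were the ends of Egfr and Cyp7b1 described above. Cd274 RNA was 4.35 ± 1.07 against 3.13 ± 0.63 CPM (SD, n = 5 each) and did not pass (edgeR, adjusted p = 0.0756). Hnf4a peaks restricted to LD stood at 1 LD-side and 2 CD-side ends (0.717% of all), and those restricted to CD at 1 and 1 (0.301%). C/EBPa peaks restricted to LD stood at 4 LD-side and 6 CD-side ends (1.04% of all), and those restricted to CD at 1 and 7 (0.638%). The 7 CD-restricted C/EBPa ends on the CD side, 1.67% of its ends, belonged among others to Bmp2, a bone morphogenetic protein gene, and Serbp1, neither of which was called. Gm16239 had LD-restricted C/EBPa peaks at an LD-side end and at a CD-side end 371 kb away.

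Where a peak was present in every sample, its height varied between samples of one diet. At the 11 LD-side ends with Hnf4a in all 4 samples median heights of 45 and 48 were found in LD samples and of 27 and 53 in CD samples. At the 44 CD-side ends they were 46.4 and 34.65 on LD, against 29.75 and 56.7 on CD. The 2 CD samples were the lowest and the highest, and their lists held 35143 and 47992 peaks. C/EBPa heights at 37 CD-side ends were 33 and 34.5 on LD and 58.5 and 41.5 on CD, and at 11 LD-side ends 25.5 and 27 on LD and 37 and 18 on CD. Heights are normalised tag counts of single samples, and the CD samples differed from each other more than the LD samples did.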

How the data were processed

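Samples were assigned to LD and CD from the diet in their labels. The authors aligned RNA-seq read pairs to mm9 with STAR 2.5, counted them by strand on RefSeq genes with featureCounts 1.5.0-p1 and deposited raw counts; they also deposited TPM values, used here only for levels between genes, and their own log2 fold changes and FDR, which were not used. The deposited PCHi-C lists hold the CHiCAGO score of each fragment pair, computed by the authors on the pooled replicates of a diet, with a minimum of 5 and at most 1 Mb; their score chose the members. H3K27ac intervals were called with SICER and Hnf4a and C/EBPa peaks with HOMER in each sample, and the deposited HOMER lists give the peak signal as a normalised height. TADs were called by the authors on summed replicates. ChIP-seq reads were aligned with Bowtie 0.12.8 and treated with Picard 1.110, per the labels. NCBIM37, the assembly known as mm9, served as reference, and the start of 1661 of 1661 member fragments lay at a HindIII site.

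Counts were fitted in R 4.3.3 with edgeR 4.0.16 (TMM, filterByExpr, robust quasi-likelihood test, Benjamini-Hochberg adjustment over 13494 genes), called at an adjusted p under 0.05 and a fold change above 1.2; 178 of 200 changed genes were recovered in simulated counts for this comparison over 13494 genes, with 10 false calls. DESeq2 1.42.0 served as an alternative. CPM are TMM-scaled. A distal end had a peak where at least 1 base overlapped. Shares were compared over samples with the exact two-sided permutation test, enumerated in Python 3.11.15. Capture started from Hi-C libraries, and no source says which libraries of the other assays came from the same mice. Peak lists of different samples shared at most 4.64% of identical intervals, and no column of other samples was left unused. The precision of levels rests on 5 mice per diet. Genes under the filter were left out of the main fit, and an alternative without the filter covered 18266 genes.

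The members, the gene lists and the motifs were chosen with earlier results of these data known. Named were the 8 members with the highest score on each side and their genes; for each side and direction the 6 called genes that changed most, provided that the groups did not overlap and 1 group averaged at least 1 CPM; called genes of the metabolic lists with a member; and the 3 baits with most members on each side. Genes named outside this rule were chosen after their values were seen: Onecut1, Zfp595 in RNA, Krt26, U6.241, Cd274, Bmp2, Serbp1, Cyp2e1, Dbp, Gpat4, Relb and Clasrp; further genes are named only as the far end of a member or the place where it lies.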

Additional observations from a re-analysis of the deposited data

Results flagged for a closer look

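Snord15a, a small nucleolar RNA gene whose bait had an LD-side member, was at 1.51 CPM in LD replicate 5, whereas the other 4 LD mice lay between 2.42 and 2.68 CPM. The gap to the nearest mouse took 0.775 of the whole range of the group. It was the one value that stood apart among 54 groups of mice looked at for the named genes, where chance gives about 1 in 20.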

How the results depend on the processing

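Over 14 alternatives per gene, 24 of 27 named genes kept their call. The exceptions were Snord15a (adjusted p = 0.0557 without CD replicate 3), Dnase1l3 (lost in 8, adjusted p up to 0.0946) and Fgf21 (lost in 7, adjusted p up to 0.109, edgeR). Leaving out 1 library at a time gave 1631 to 1890 higher and 1202 to 1595 lower genes in all, and 9 to 22 lower LD-side genes. Without CD replicate 4, 9 of 241 LD-side genes and 1202 of 13609 genes in all were lower.

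The numbers of members follow from the threshold. A minimum score of 8 gave 2429 LD-side and 2968 CD-side members, a minimum of 12 gave 70 and 131, members with no pair of the same bait within 20 kb on the other diet numbered 70 and 96, and ordered pairs gave 425 and 643. With a minimum of 12, 9 of 59 tested LD-side genes were higher and 2 lower, and 18 and 10 of 104 CD-side genes. With no pair within 20 kb, 12 of 60 LD-side genes were higher and 5 lower, and 16 and 8 of 100 CD-side genes. Over all tested genes 13.8% were higher and 11.1% lower. These smaller sets were not tested against that background.

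The Hnf4a difference between the sides turned to 4.55 points with no pair within 20 kb, and ranged from -1.71 to 0.555 points when 1 sample was left out, the last without LD replicate 1. The C/EBPa difference turned to 4.12 points with a minimum score of 12, 12.2 with no pair within 20 kb and 0.0762 from 250 kb on, a setting chosen after seeing the data. The cause was not tested. The H3K27ac difference stayed positive in every setting run, from 2.67 to 4.42 points without 1 mouse. It was 8.87 with a minimum score of 12 and 12.1 with no pair within 20 kb (exact p = 0.2). It was 2.08 from 250 kb on (exact p = 0.1) and 1.19 with at least 50% of the peak inside the end (exact p = 0.4). For all 3 marks, the differences with no pair within 20 kb rest on few ends. Only 70 LD-side and 96 CD-side members remained there, not all with a distal end. With a minimum score of 12, 70 and 131 remained.

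The replicate numbers did not pair the mice, as the correlations of their deviations were -0.08, 0.19, 0.01, 0.01 and -0.04. With a replicate block, 1818 of 13494 genes were higher and 1355 lower. LD-side genes gave 32 and 15 of 241, and CD-side genes 53 and 35 of 359. The H3K27ac difference then had an exact p of 0.25.

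Limits are the pooled scores without replicate error, 2 or 3 samples per diet for peaks, and a score threshold near which most members lie.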
